A study of Mus musculus with 6 samples.

Results

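Oxidative phosphorylation is the last stage of respiration, in which mitochondria turn the energy of nutrients into ATP. The 110 genes described here are its protein-coding genes among the 48526 genes counted, chosen by symbol: those starting with Nduf, Sdha to Sdhd, Uqcr, Cox4 to Cox8, Atp5 or mt-. By gene class, 85 encode nuclear subunits or their paralogs, 12 encode assembly factors caught by the same prefixes (Ndufaf1 to Ndufaf8 and Sdhaf1 to Sdhaf4), and 13 lie on the mitochondrial genome. Ndufa4 and Ndufa4l2 were put with complex IV, where the NDUFA4 protein is known to sit. The rule used no measured value.

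The RNA came from neural progenitor cells made from mouse embryonic stem cells (mESCs). One mESC line is labelled -/- for Dmrta2, which encodes a DNA-binding protein of the DM domain kind, and gave 3 libraries. The other is labelled flox/flox, the control, in which Dmrta2 is flanked by recombinase sites, and also gave 3 libraries. Both lines were differentiated in N2B27 medium with LDN193189 (100 nM) and SB431542 (10 µM), inhibitors of BMP and TGF-beta receptor signalling, until day 4. XAV939 (1 µM), a Wnt pathway inhibitor, was present until day 6, and cyclopamine (1 µM), a Hedgehog pathway inhibitor, from day 2. The cells were replated on day 5, and RNA was taken on day 8. Each genotype is 1 line, so genotype and line cannot be told apart, and each p-value rests on how much cultures of the same line varied.

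Electrons from nutrients enter the respiratory chain at complex I (NADH dehydrogenase) or complex II (succinate dehydrogenase) and pass through complex III and complex IV to oxygen. The proton gradient that complexes I, III and IV build drives complex V, the ATP synthase. Complex II is encoded wholly in the nucleus, and the other complexes combine nuclear subunits with subunits made inside the mitochondrion. The mitochondrial genome is transcribed from both strands as long RNAs that are then cut into single messages. Neural progenitors rely in large part on glycolysis, and neurons on oxidative phosphorylation.

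Some neighbouring mitochondrial genes share bases, so that some reads belong to both. The end of mt-Atp8 and the start of mt-Atp6, which encode complex V subunits, share 43 bases in different reading frames, shown in capitals (GRCm38, chrM:7766-7969 and chrM:7927-8607, plus strand).
mt-Atp8 3′ end: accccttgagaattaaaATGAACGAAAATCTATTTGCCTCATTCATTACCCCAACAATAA
mt-Atp6 5′ end: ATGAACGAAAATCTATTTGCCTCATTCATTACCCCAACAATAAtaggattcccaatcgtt
The ends of mt-Nd5 and mt-Nd6, both complex I subunits, share 14 bases on opposite strands, again in capitals and each written 5′ to 3′ on its own strand (chrM:11742-13565, plus strand, and chrM:13552-14070, minus strand). mt-Nd6 is the 1 mitochondrial protein message transcribed from the other strand.
mt-Nd5 3′ end: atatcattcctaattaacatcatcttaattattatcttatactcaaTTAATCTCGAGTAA
mt-Nd6 3′ end: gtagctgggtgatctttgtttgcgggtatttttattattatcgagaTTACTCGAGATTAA

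Chromosome 1 holds a near-perfect nuclear copy of part of the mitochondrial genome, and the table counts its pieces as separate genes. The first 60 bases of mt-Nd3 (chrM:9459-9806, plus strand) and of its copy Gm28438 (chr1:24612775-24613119, minus strand) show how close the copies are. The only difference over the 345 aligned bases was T3C, counted from the first base of mt-Nd3 and given as mt-Nd3's base, position and the copy's base, in capitals.
mt-Nd3: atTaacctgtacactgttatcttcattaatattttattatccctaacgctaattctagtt
Gm28438: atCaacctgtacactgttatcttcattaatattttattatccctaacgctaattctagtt

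Levels are given as CPM, counts per 1e6 of the TMM-scaled library size, and fold changes as log2 of -/- over flox/flox with the standard error of the fit. A gene is said to have risen or fallen when its adjusted p was under 0.05 in edgeR's quasi-likelihood test over all 20549 genes tested, with Benjamini-Hochberg adjustment. Of all these genes, 17.9% rose and 17.4% fell, 51.0% had non-overlapping CPM in the groups, and the median log2 fold change was -0.003. Total counts lay between 29031604 and 39646793 in -/- libraries and between 24565560 and 29820515 in flox/flox libraries. Dmrta2 itself had 409, 414 and 439 CPM in the libraries labelled -/- and 85.2, 75.1 and 79.2 CPM in those labelled flox/flox, so its count was higher under the -/- label. The deleted stretch is not given in the sources used here, so a count over the whole gene does not check the deletion. Of 838 protein-coding genes at or above 10 CPM on chromosome 11, 82.8% rose, with a median log2 fold change of 0.56. Among 9267 such genes elsewhere 16.6% rose and 20.5% fell, and members on chromosome 11 are therefore given apart.

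Markers of cell type also differed between the lines. Of 12 neuron markers 11 rose, and their summed level was 3352 to 5498 CPM in -/- libraries, against 1824 to 2833 CPM in flox/flox libraries. The 10 neural progenitor markers summed to 3576 to 3860 CPM in -/- libraries and 3648 to 4159 CPM in flox/flox libraries. Of them 6 rose and 3 fell, and RNA of these markers of the labelled cell type was thus found in every library. Pluripotency markers (8 genes) summed to 65.6 to 91.1 CPM in -/- libraries and 111.5 to 119.9 CPM in flox/flox libraries. Summed levels of 12 contractile markers were 11.6 to 14.2 CPM in -/- libraries and 19.4 to 21.3 CPM in flox/flox libraries. Those of 8 blood and endothelial markers were 8.52 to 19.8 CPM in -/- and 56.9 to 89.8 CPM in flox/flox libraries, of which Kdr, the 1 called gene of 3 tested, averaged 4.08 CPM in -/- and 53.4 CPM in flox/flox libraries. The 8 mesoderm and endoderm markers summed to 135.5 to 158.2 CPM in -/- libraries and 76.4 to 118.6 CPM in flox/flox libraries, with 4 of 6 tested genes risen and 1 fallen. Eomes made up most of that sum, averaging 90.4 CPM in -/- and 39.7 CPM in flox/flox libraries. None of these markers was at 0 reads over the 6 libraries. The part of these cells in the values below was not tested, and in bulk RNA fewer cells of a type and less RNA per cell cannot be told apart.

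Of the 110 genes, 105 were tested, and 28 rose, 3 fell and 74 did neither. The 5 genes left out for low counts are all tissue-restricted isoforms of complex IV. The rises stand at 28 of 105 beside 17.9% of all genes, and the falls at 3 of 105 beside 17.4%. CPM did not overlap between the groups in 57 of the 105, a share near the 51.0% of all genes. The median log2 fold change was 0.10, and 69 of the 105 lay within 0.2 of 0, so most differences were small. The 13 mitochondrial genes had a median of 0.19 and the 80 nuclear subunit genes a median of 0.08. Only 14 of the 31 called genes passed the threshold under every alternative tried, and no called gene changed its direction.

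**Figure D1:**
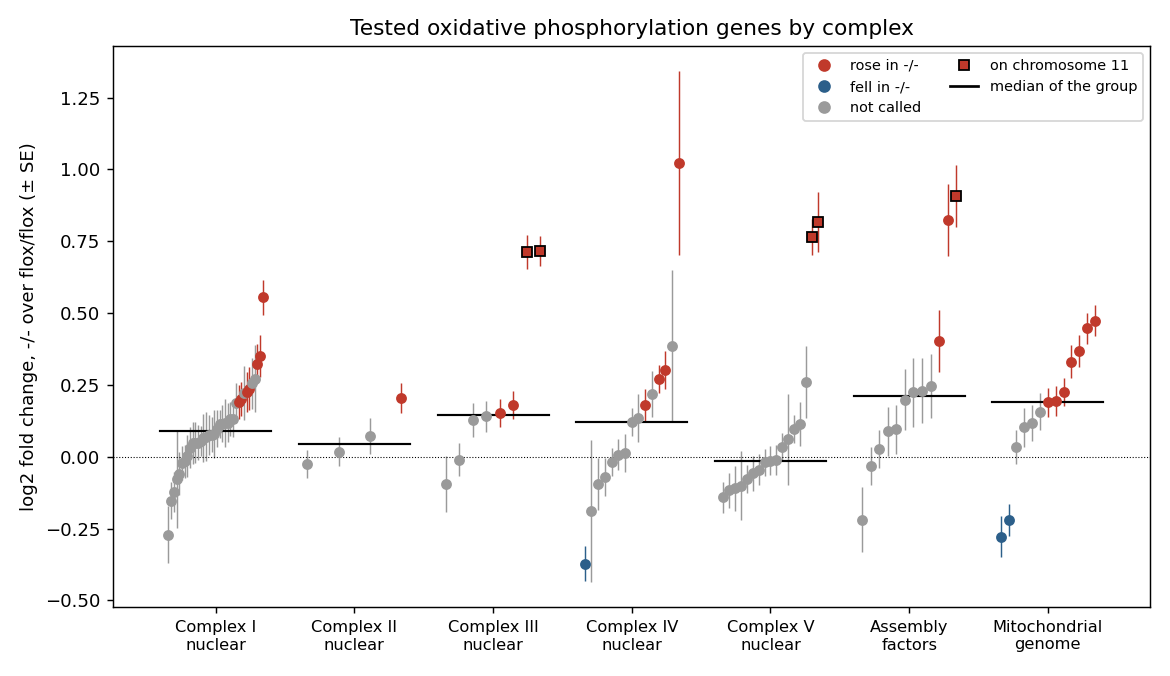
The log2 fold change (-/- over flox/flox, ± SE) of each tested gene is plotted by complex, coloured by its call, with a line at the median of each group and squares for genes on chromosome 11. The chromosome 11 genes lie between 0.71 and 0.91, and among nuclear subunit genes Cox5a alone is marked as fallen.

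Messages of the mitochondrial genome made up a larger share of the -/- libraries. They took 3.85, 3.71 and 3.93% of all counts in -/- libraries, against 3.34, 3.25 and 3.32% in flox/flox libraries. The means were 3.83% ± 0.109 in -/- and 3.30% ± 0.0473 in flox/flox (SD, n = 3 each), and the groups did not overlap. Nuclear subunit genes took 0.587% ± 0.0118 of counts in -/- libraries and 0.569% ± 0.0103 in flox/flox libraries, and those groups overlapped. The ratio of mitochondrial to nuclear subunit counts was 6.44, 6.31 and 6.83 in -/- libraries and 5.97, 5.72 and 5.73 in flox/flox libraries, so every -/- library lay above every flox/flox library. These are shares of libraries made from poly(A) RNA, and no p was computed for sums over the members.

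The mitochondrial genes did not move as 1 block: 7 of 13 rose, 2 fell and 4 did neither. Of all genes, 17.9% rose and 17.4% fell. The 2 complex V genes rose most. mt-Atp8 had 1415, 1337 and 1453 CPM in -/- libraries and 1024, 1009 and 995 CPM in flox/flox libraries (log2 fold change 0.47 ± 0.05, edgeR adjusted p = 0.000895). mt-Atp6, the proton channel subunit encoded beside it, had 3492, 3335 and 3557 CPM in -/- libraries and 2578, 2499 and 2541 CPM in flox/flox libraries (0.45 ± 0.05, adjusted p = 0.00107). Neither pair of groups overlapped, and both folds were near 1.4 (1.39 and 1.36). The bases that the genes share make up 21.1% of mt-Atp8 and 6.5% of mt-Atp6, so reads that lie within them cannot be assigned to 1 of the genes.

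mt-Cytb, the catalytic cytochrome b of complex III, had 4594, 4440 and 4774 CPM in -/- libraries and 3578, 3483 and 3640 CPM in flox/flox libraries (log2 fold change 0.37 ± 0.06, edgeR adjusted p = 0.00245). The groups stood 1.29-fold apart. mt-Co1, the catalytic core of complex IV, had 12210, 11760 and 12750 CPM in -/- libraries and 9933, 9691 and 9571 CPM in flox/flox libraries (0.33 ± 0.06, adjusted p = 0.00447). mt-Co2, which takes electrons from cytochrome c, rose less, with 2156, 2086 and 2156 CPM in -/- libraries and 1847, 1814 and 1813 CPM in flox/flox libraries (0.22 ± 0.05, adjusted p = 0.0108). Its groups did not overlap either, but without flox/flox B its adjusted p was 0.0586. mt-Co3, the third mitochondrial subunit of complex IV, had 1976, 1915 and 2136 CPM in -/- libraries and 2004, 1804 and 1810 CPM in flox/flox libraries. It overlapped between the groups and was not called (0.10 ± 0.07, adjusted p = 0.293).

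The 7 mitochondrial genes of complex I split in both directions. mt-Nd4 had 2799, 2729 and 2912 CPM in -/- libraries and 2503, 2447 and 2433 CPM in flox/flox libraries (log2 fold change 0.19 ± 0.05, edgeR adjusted p = 0.0254). Its overlapping neighbour mt-Nd4l had 527, 520 and 544 CPM in -/- libraries and 477, 455 and 464 CPM in flox/flox libraries (0.19 ± 0.05, adjusted p = 0.0223). Both rose, with no overlap between the groups. mt-Nd5, a proton-pumping membrane subunit, had 2056, 1915 and 2056 CPM in -/- libraries and 2400, 2300 and 2327 CPM in flox/flox libraries (-0.22 ± 0.06, adjusted p = 0.0183). mt-Nd6 had 659, 597 and 672 CPM in -/- libraries and 834, 771 and 733 CPM in flox/flox libraries (-0.28 ± 0.07, adjusted p = 0.0208). These last 2 fell, and every -/- library lay below every flox/flox library for both. The strand setting of the counts is not given in the sources used here. Reads from the strand opposite mt-Nd6, which carries mt-Nd5, may therefore be counted as mt-Nd6. The falls of mt-Nd5 and mt-Nd6 may thus not be separate measurements.

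The remaining complex I messages were mt-Nd1, mt-Nd2 and mt-Nd3, none of them called. mt-Nd1 had 4295, 3956 and 4403 CPM in -/- libraries and 3950, 3640 and 3766 CPM in flox/flox libraries (log2 fold change 0.16 ± 0.06, edgeR adjusted p = 0.0988, and 0.0497 with the column letters as replicate block). Its groups were apart by a narrow margin. mt-Nd2 had 2385, 2195 and 2422 CPM in -/- libraries and 2239, 2068 and 2148 CPM in flox/flox libraries, with overlap (0.12 ± 0.06, adjusted p = 0.185). mt-Nd3 had the smallest change, with 255, 240 and 270 CPM in -/- libraries and 250.5, 248 and 249 CPM in flox/flox libraries (0.03 ± 0.06, adjusted p = 0.686). Its -/- libraries lay on both sides of the flox/flox libraries.

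Calls of the smaller mitochondrial changes were lost when some single libraries were left out, which also leaves the test fewer libraries. In those fits the log2 fold change of mt-Nd4 was 0.19 to 0.205 (0.193 with all libraries). That of mt-Nd6 was -0.285 to -0.216 (-0.278 with all libraries). mt-Nd4 missed the threshold without any 1 of the 3 flox/flox libraries (edgeR adjusted p 0.0517 to 0.103). mt-Nd4l missed it without -/- B, flox/flox B or flox/flox C (0.0516 to 0.102). The fall of mt-Nd5 missed it without -/- B or any 1 flox/flox library (0.0516 to 0.0885), and that of mt-Nd6 without -/- B, flox/flox A or flox/flox B (0.0624 to 0.0876). mt-Atp8, mt-Atp6, mt-Cytb and mt-Co1 passed whichever library was left out.

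**Figure D2:**
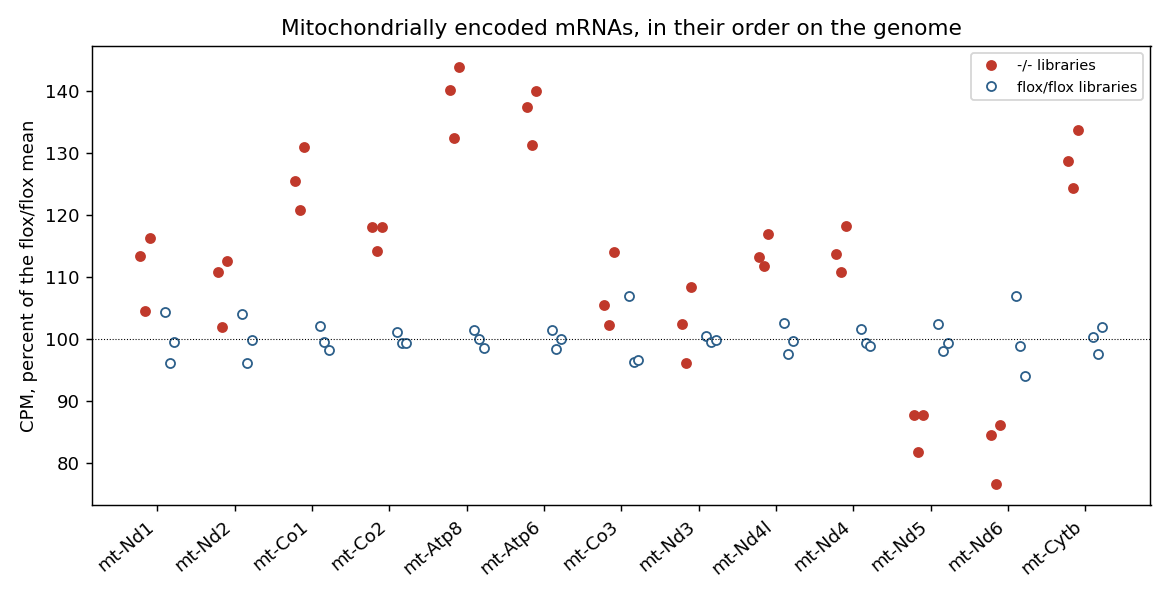
CPM of the 13 mitochondrial messages in each library, as a percentage of that gene's flox/flox mean, in their order along the mitochondrial genome. The -/- points of mt-Atp8, mt-Atp6, mt-Cytb and mt-Co1 stand highest above the flox/flox points, and those of mt-Nd5 and mt-Nd6 lie below them.

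Shares within the mitochondrial messages separate the lines without any scaling between libraries. mt-Nd5 held 5.13 to 5.30% of the counts of the 13 genes in -/- libraries, against 7.14 to 7.16% in flox/flox libraries. mt-Nd6 held 1.61 to 1.70% in -/- libraries and 2.26 to 2.48% in flox/flox libraries. In the other direction, mt-Atp8 held 3.61 to 3.65% in -/- libraries and 3.05 to 3.13% in flox/flox libraries, and mt-Atp6 held 8.87 to 9.01% in -/- and 7.67 to 7.82% in flox/flox libraries. mt-Co1 held 31.5 to 31.8% in -/- libraries and 29.5 to 30.1% in flox/flox libraries. The shares of 12 of the 13 genes did not overlap between the groups, and mt-Co2 was the exception. The CPM of 51.0% of all genes did not overlap, and no such shares were computed for other genes. Shares add to a fixed total, so a gene whose CPM hardly differed, such as mt-Nd3, had a lower share in -/- libraries (0.648 to 0.674%, against 0.745 to 0.770%).

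Per kilobase of exon, the mitochondrial messages were far above the nuclear ones in both lines. As counted, without the reads of near-identical copies, mt-Co1 was the highest at 7921 CPM per kb in -/- libraries and 6299 in flox/flox libraries. It was followed by mt-Atp8 at 6870 in -/- and 4947 in flox/flox. mt-Nd3 was the lowest mitochondrial message, with 733 CPM per kb in -/- and 716 in flox/flox libraries. This order is uncertain, since copies held 0.979 reads per read of mt-Nd3 and 0.999 per read of mt-Atp6. mt-Atp6 stood at 5083 CPM per kb in -/- and 3729 in flox/flox libraries. The highest nuclear genes were Atp5a1 and Atp5b, which encode the alpha and beta subunits of the catalytic head of ATP synthase. Atp5a1 had 228 CPM per kb in -/- and 222 in flox/flox libraries, and Atp5b had 218 in -/- and 220 in flox/flox.

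The pieces of the chromosome 1 copy held about as many reads as the gene they copy, or a large part of them. Gm10925 (chr1:24613974-24614651) aligned to mt-Atp6 with no mismatch over 678 bases and held 0.999 reads per read of mt-Atp6. The same ratio was 1.00 for Gm28661 and mt-Co2, 0.985 for Gm28437 and mt-Co3, 0.979 for Gm28438 and mt-Nd3, and 1.05 for Gm10222 and mt-Nd4l. It was 0.452 for Gm28439, which covers 63.6% of mt-Nd4, and 0.121 for Gm29216, which covers 31.3% of mt-Co1. Each copy moved as its mitochondrial gene did: the log2 fold change was 0.44 for Gm10925 beside 0.45 for mt-Atp6, 0.33 for Gm29216 beside 0.33 for mt-Co1, and 0.06 for Gm28438 beside 0.03 for mt-Nd3. How the authors treated reads with several matches is not given in the sources used here, so the absolute levels of these genes are uncertain. Reads from a stretch identical in gene and copy cannot be assigned to 1 of them, so the matching changes are not separate measurements. With the chromosome 1 copies added, the mitochondrial share was 4.93% ± 0.128 in -/- libraries and 4.23% ± 0.0566 in flox/flox libraries (SD, n = 3 each).

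Most nuclear subunit genes differed little between the lines. Of 80 tested, 18 rose, 1 fell and 61 did neither. The groups did not overlap in 40 of the 80, beside 51.0% of all genes. Outside chromosome 11 the counts were 14 risen and 1 fallen of 76, beside 16.6% risen and 20.5% fallen among all protein-coding genes of at least 10 CPM there. Summed over the 81 genes outside chromosome 11, the level was 5803, 5645 and 5654 CPM in -/- libraries and 5501, 5501 and 5537 CPM in flox/flox libraries, a ratio of 1.03 with no overlap. This separation rests on TMM scaling: as a plain share of all counts, all 85 nuclear subunit genes together overlapped between the groups. The 14 rises outside chromosome 11 became 6, 5 and 8 without -/- A, B and C in turn, and 6, 4 and 10 without flox/flox A, B and C. With no filter on low counts they were 9. With the replicate block, the falls were 2 in place of 1.

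**Figure D3:**
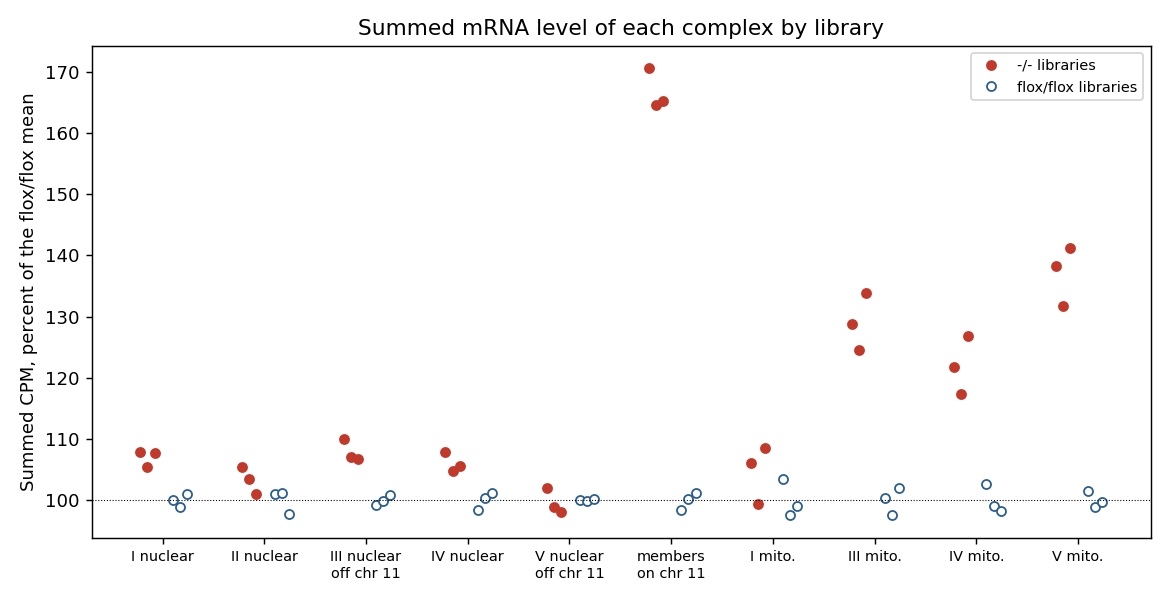
Summed CPM of the nuclear subunits of each complex, of the members on chromosome 11 and of the mitochondrial genes of each complex, in every library, as a percentage of the flox/flox mean. The -/- points of the chromosome 11 members and of the mitochondrial genes of complexes III, IV and V lie highest above the flox/flox points, and those of the nuclear complex V genes outside chromosome 11 lie around them.

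Summed by complex, some groups were apart and others overlapped. Complex I nuclear genes summed to 1535, 1499 and 1531 CPM in -/- libraries and 1423, 1406 and 1437 CPM in flox/flox libraries, with no overlap. Its mitochondrial genes summed to 12980, 12150 and 13280 CPM in -/- libraries and 12650, 11930 and 12120 CPM in flox/flox libraries, which overlapped. Nuclear complex IV genes stood at 883.8, 858.1 and 865.6 CPM in -/- libraries and 806.5, 822.9 and 829 CPM in flox/flox libraries, a ratio of 1.06. The 3 mitochondrial genes of complex IV summed to 16340, 15760 and 17040 CPM in -/- libraries and 13780, 13310 and 13190 CPM in flox/flox libraries, a ratio of 1.22. Both complex IV sums were apart between the groups. Complex II overlapped, with 444.6, 436 and 425.8 CPM in -/- libraries and 425.5, 426.7 and 412.3 CPM in flox/flox libraries.

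Complex I is the largest complex, and 7 of its 36 nuclear subunit genes rose, a share near the 17.9% of all genes. None fell in edgeR, DESeq2 or limma-voom (2 were lower at an unadjusted p under 0.05), and the median log2 fold change was 0.09. Ndufb10, an accessory subunit of the membrane arm, rose most, with 37.4, 37.2 and 38.1 CPM in -/- libraries and 25.1, 25.2 and 26.5 CPM in flox/flox libraries (log2 fold change 0.56 ± 0.06, edgeR adjusted p = 0.000794). Ndufa3, also an accessory subunit, came next with 20.5, 21.2 and 21.2 CPM in -/- libraries and 16.5, 17.0 and 15.8 CPM in flox/flox libraries (0.35 ± 0.07, adjusted p = 0.00887). Neither gene overlapped between the groups, and both calls held without any 1 library. Ndufb7 rose by a similar amount, with 61.7, 56.5 and 58.3 CPM in -/- libraries and 46.0, 45.1 and 49.96 CPM in flox/flox libraries (0.32 ± 0.07, adjusted p = 0.00873).

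Among the core subunits, the called rises were small. Ndufv1, which binds NADH and the flavin, had 89.8, 87.7 and 92.3 CPM in -/- libraries and 75.9, 75.7 and 83.3 CPM in flox/flox libraries (log2 fold change 0.20 ± 0.06, edgeR adjusted p = 0.0373). It rose, as did the core iron-sulphur subunit Ndufs7 (0.24 ± 0.08, adjusted p = 0.0429). Ndufs1, the large iron-sulphur subunit of the NADH-oxidising arm, had 92.4, 86.5 and 94.9 CPM in -/- libraries and 90.0, 92.8 and 94.1 CPM in flox/flox libraries, with full overlap (-0.02 ± 0.06, adjusted p = 0.852). Of the 7 nuclear core genes these were the 2 that rose, and 5 of the 29 accessory genes rose, beside 17.9% of all genes. The accessory genes Ndufa8 (0.19 ± 0.06, adjusted p = 0.0416) and Ndufb9 (0.22 ± 0.07, adjusted p = 0.0439) complete the 7 rises.

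Some complex I calls were fragile. Ndufa8 missed the threshold without any 1 of the 6 libraries (edgeR adjusted p 0.0509 to 0.154), in DESeq2 (0.0608) and with no filter on low counts (0.0669). Ndufb9, Ndufs7 and Ndufv1 missed it without any 1 library but flox/flox C (0.0732 to 0.157, 0.0595 to 0.116 and 0.0631 to 0.14), and Ndufs7 also with no filter (0.0514). Ndufs6, an accessory subunit, had 22.1, 19.4 and 17.7 CPM in -/- libraries and 25.3, 23.6 and 22.6 CPM in flox/flox libraries. Its -/- libraries all lay lower, but it was not called (-0.27 ± 0.10, adjusted p = 0.0712). With the replicate block its adjusted p was 0.0224, with the reads of its near-identical copy added it was 0.0266, and without -/- A 0.0332. Ndufb2 was not called (adjusted p = 0.0575) but passed with the block (0.0324), with scaling factors taken without chromosome 11 (0.041) and without -/- A (0.0424). The uncalled complex I genes ran from Ndufs6 up to Ndufb4 (0.27 ± 0.12, adjusted p = 0.111), which passed with the reads of its near-identical copy added (0.31, adjusted p = 0.024).

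Complex II, the 1 complex made wholly from nuclear genes, showed small differences. Sdha, its catalytic flavoprotein, had 185.6, 181.5 and 178 CPM in -/- libraries and 187.9, 186.7 and 179.9 CPM in flox/flox libraries (log2 fold change -0.02 ± 0.05, edgeR adjusted p = 0.734). Sdhb, the iron-sulphur subunit, had 77.3, 79.4 and 79.3 CPM in -/- libraries and 76.9, 79.8 and 76.4 CPM in flox/flox libraries (0.02 ± 0.05, adjusted p = 0.82). Both overlapped between the groups. Of the membrane anchors, Sdhd was not called (0.07 ± 0.06, adjusted p = 0.401). Sdhc rose, with 93.3, 89.0 and 87.5 CPM in -/- libraries and 78.5, 76.3 and 79.3 CPM in flox/flox libraries (0.20 ± 0.05, adjusted p = 0.0215). The Sdhc groups were apart, but the call missed the threshold without -/- A, -/- B, flox/flox A or flox/flox B (0.0545 to 0.0932). None of the 4 genes fell in edgeR, DESeq2 or limma-voom, and none was lower at an unadjusted p under 0.05.

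Complex III had 4 of 8 nuclear genes risen, beside 17.9% of all genes, and 2 of the 4 lie on chromosome 11. None had fallen in edgeR, DESeq2 or limma-voom. Off that chromosome, Uqcrc1, a core subunit facing the matrix, had 124.4, 124.4 and 125.4 CPM in -/- libraries and 108.1, 109.7 and 112.9 CPM in flox/flox libraries (log2 fold change 0.18 ± 0.05, edgeR adjusted p = 0.0244). Uqcrfs1, the Rieske iron-sulphur protein that passes electrons on to cytochrome c1, had 97.0, 98.6 and 98.0 CPM in -/- libraries and 86.2, 89.7 and 88.3 CPM in flox/flox libraries (0.15 ± 0.05, adjusted p = 0.0458). Both rises were of about 1.1-fold (1.13 and 1.11) with groups that did not overlap. The Uqcrc1 call missed the threshold without -/- A, -/- B, flox/flox A or flox/flox B (0.052 to 0.0953), and that of Uqcrfs1 without any 1 library (0.0515 to 0.129), in DESeq2 (0.0583) and with no filter (0.0757). The 4 uncalled genes lay between -0.10 (Uqcrb) and 0.14 (Uqcrh), and no nuclear gene of the complex was lower at an unadjusted p under 0.05.

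Complex IV held the 1 nuclear subunit gene that fell. Cox5a, a subunit on the matrix side of the enzyme, had 45.8, 42.5 and 46.3 CPM in -/- libraries and 57.5, 59.8 and 56.9 CPM in flox/flox libraries (log2 fold change -0.37 ± 0.06, edgeR adjusted p = 0.00336). The -/- libraries lay 1.29-fold lower with no overlap, the fall was called under every alternative tried (log2 fold change -0.385 to -0.324), and 12.8% of its exonic bases lie under exons of another gene. Cox5b, another subunit on the matrix side, had 15.8, 16.1 and 15.8 CPM in -/- libraries and 13.04, 14.2 and 13.8 CPM in flox/flox libraries. It was not called as counted (0.22 ± 0.08, adjusted p = 0.0696) but rose with the reads of its copy Gm11273 added (0.30, adjusted p = 0.00404), and passed with scaling factors taken without chromosome 11 (adjusted p = 0.0481).

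Isoforms of complex IV subunits were mostly of the common type in both lines. Cox4i1, the widely expressed form of subunit 4, had 178.1, 175.7 and 179.1 CPM in -/- libraries and 161.1, 160.8 and 168.5 CPM in flox/flox libraries, apart but not called (log2 fold change 0.12 ± 0.05, edgeR adjusted p = 0.093). Its lung and hypoxia isoform Cox4i2 had 16 reads over all 6 libraries. Cox6a1, the non-muscle form of subunit 6a, rose, with 115.2, 112.1 and 114.5 CPM in -/- libraries and 92.5, 96.3 and 94.9 CPM in flox/flox libraries (0.27 ± 0.05, adjusted p = 0.00528). The muscle form Cox6a2 had 8 reads in all. Cox8a, the common form of subunit 8, had 118.9, 107.6 and 111.4 CPM in -/- libraries and 100.2, 99.5 and 98.4 CPM in flox/flox libraries (0.18 ± 0.06, adjusted p = 0.0408), and the muscle form Cox8b 1 read and Cox8c 0 reads. The rise of Cox8a missed the threshold without any 1 library but -/- C (0.0539 to 0.123), and also in DESeq2 (0.0585) and with no filter on low counts (0.0525).

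The subunit 7 family showed 1 rise. Cox7a2l, which takes part in joining complexes III and IV, had 87.7, 86.8 and 92.0 CPM in -/- libraries and 69.8, 68.8 and 77.5 CPM in flox/flox libraries (log2 fold change 0.30 ± 0.06, edgeR adjusted p = 0.0105, and 0.0518 without flox/flox B). Its relative Cox7a2 overlapped between the groups, with 40.9, 39.4 and 43.5 CPM in -/- libraries and 34.8, 36.3 and 41.6 CPM in flox/flox libraries (0.13 ± 0.08, adjusted p = 0.252). The muscle form Cox7a1 stayed near 1 CPM, with 1.02, 0.936 and 0.739 CPM in -/- libraries and 0.743, 0.494 and 0.837 CPM in flox/flox libraries (0.39 ± 0.26, adjusted p = 0.298). Those groups overlapped as well. Cox7b had 38.9, 36.7 and 36.2 CPM in -/- libraries and 38.0, 38.0 and 41.4 CPM in flox/flox libraries (-0.07 ± 0.07, adjusted p = 0.447), and its relative Cox7b2 had 6 reads in all.

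Cox6b2, known as the testis form of subunit 6b, was well above the floor in both lines. It had 31.8, 34.9 and 19.0 CPM in -/- libraries and 34.2, 39.3 and 24.4 CPM in flox/flox libraries (log2 fold change -0.19 ± 0.25, edgeR adjusted p = 0.593). In each line library C was the lowest and library B the highest. Per kilobase, Cox6b2 stood at 25.8 CPM per kb in -/- and 29.4 in flox/flox libraries, below the common form Cox6b1 at 119 in -/- and 118 in flox/flox libraries. Cox6b1 itself had 86.7, 81.1 and 84.1 CPM in -/- libraries and 81.0, 84.8 and 84.9 CPM in flox/flox libraries and overlapped (0.01 ± 0.05, adjusted p = 0.932).

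Ndufa4 and its relative Ndufa4l2 stood at very different levels. Ndufa4 had 75.5, 74.5 and 74.3 CPM in -/- libraries and 76.8, 74.6 and 75.8 CPM in flox/flox libraries (log2 fold change -0.02 ± 0.05, edgeR adjusted p = 0.801). Ndufa4l2, known as hypoxia-induced, had 0.407, 0.482 and 0.563 CPM in -/- libraries and 0.27, 0.266 and 0.159 CPM in flox/flox libraries (1.02 ± 0.32, adjusted p = 0.0422). Its groups were apart, but it rests on 68 reads in all. Its call missed the threshold without any 1 library (0.0567 to 0.117), with the replicate block (0.0703), in DESeq2 (0.18) and with no filter (0.0744).

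Complex V combined the largest mitochondrial rises with small nuclear differences. Outside chromosome 11, none of its 15 nuclear genes rose or fell in edgeR, DESeq2 or limma-voom, the median log2 fold change was -0.02, and 1 gene was lower at an unadjusted p under 0.05. Atp5a1, which encodes the alpha subunit, had 729, 712 and 700.1 CPM in -/- libraries and 700.1, 689 and 700.2 CPM in flox/flox libraries (0.04 ± 0.05, edgeR adjusted p = 0.605). Atp5b, the catalytic beta subunit, had 952, 916 and 899 CPM in -/- libraries and 923, 944 and 928 CPM in flox/flox libraries (-0.01 ± 0.05, adjusted p = 0.853). Both overlapped between the groups. Summed over the 15 genes, the level was 2483, 2408 and 2388 CPM in -/- libraries and 2434, 2431 and 2440 CPM in flox/flox libraries. The 2 mitochondrial genes of the same enzyme summed to 4907, 4672 and 5009 CPM in -/- libraries and 3602, 3508 and 3536 CPM in flox/flox libraries, a ratio of 1.37.

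The remaining nuclear complex V genes lay between -0.14 (Atp5e, the epsilon subunit, ± 0.06, edgeR adjusted p = 0.0844) and 0.26 (Atp5s, ± 0.12, adjusted p = 0.146). The ring subunit c is encoded by 3 genes that give the same mature protein. Atp5g3 had 148.6, 145.9 and 144.7 CPM in -/- libraries and 146.7, 148.5 and 150.3 CPM in flox/flox libraries (-0.02 ± 0.05, adjusted p = 0.771). Atp5g2 had 23.1, 21.6 and 21.2 CPM in -/- libraries and 19.3, 20.6 and 21 CPM in flox/flox libraries (0.11 ± 0.08, adjusted p = 0.288). Neither was called, and the third gene, Atp5g1, lies on chromosome 11.

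All 5 members on chromosome 11 rose, beside 82.8% of protein-coding genes of at least 10 CPM on that chromosome. Uqcrq, a small complex III subunit that contacts cytochrome b, had 104.4, 100.3 and 100.7 CPM in -/- libraries and 61.0, 61.6 and 63.4 CPM in flox/flox libraries (log2 fold change 0.72 ± 0.05, edgeR adjusted p = 0.000325). Uqcr10, another small complex III subunit, had 68.9, 64.0 and 64.8 CPM in -/- libraries and 41.3, 40.1 and 39.3 CPM in flox/flox libraries (0.71 ± 0.06, adjusted p = 0.000393). The 2 lie far apart on the chromosome, at chr11:53427922-53430831 and chr11:4701973-4704342, and their folds were the same to 2 digits (1.64 each). Atp5h, the stalk subunit d of complex V, had 36.9, 37.3 and 37.4 CPM in -/- libraries and 21.1, 22.4 and 22.2 CPM in flox/flox libraries (0.76 ± 0.06, adjusted p = 0.000381). Atp5g1 had 19.1, 19.1 and 17.3 CPM in -/- libraries and 9.39, 10.8 and 11.4 CPM in flox/flox libraries (0.82 ± 0.10, adjusted p = 0.00129). The assembly factor gene Ndufaf8 had 10.4, 10.5 and 11.9 CPM in -/- libraries and 5.47, 5.96 and 6.02 CPM in flox/flox libraries (0.91 ± 0.11, adjusted p = 0.0011). In each of the 5 every -/- library lay above every flox/flox library.

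Summed, the 5 genes stood at 239.7, 231.3 and 232.1 CPM in -/- libraries and 138.4, 140.9 and 142.3 CPM in flox/flox libraries, a ratio of 1.67. An offset of 0.52 (log2) was then taken out, the median of all tested genes on chromosome 11 against that of the others. With it Atp5g1 was no longer called (0.30, edgeR adjusted p = 0.0592). The other 4 were, with Uqcr10 left at 0.196 and Uqcrq at 0.199. The offset is below the median of 0.56 of the chromosome's protein-coding genes of at least 10 CPM. An offset of that size was not tried, so whether these genes exceed the shift of such genes was not tested. Complexes III and V without their chromosome 11 genes had 2 of 6 and 0 of 15 rises, against 4 of 8 and 2 of 17 with them. Outside chromosome 11, 16.6% of protein-coding genes of at least 10 CPM rose.

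Assembly factors help build the complexes and are not part of them. Of 12, 3 rose, beside 17.9% of all genes, with a median log2 fold change of 0.21. Ndufaf8 among them lies on chromosome 11, where 82.8% of protein-coding genes of at least 10 CPM rose. None of the 12 fell in edgeR, DESeq2 or limma-voom or was lower at an unadjusted p under 0.05. Ndufaf3 had 15.1, 14.5 and 15.8 CPM in -/- libraries and 8.85, 7.14 and 9.68 CPM in flox/flox libraries (0.82 ± 0.13, edgeR adjusted p = 0.00266). It lies on chromosome 9 and its groups were well apart. Ndufaf7, a methyltransferase that acts on complex I, had 14.6, 16.4 and 17.9 CPM in -/- libraries and 12.9, 11.4 and 12.6 CPM in flox/flox libraries (0.40 ± 0.11, adjusted p = 0.0231). Without -/- B or flox/flox B it missed the threshold (0.0697 to 0.0901). The lowest of the 12 was Ndufaf6 (-0.22 ± 0.11, adjusted p = 0.172). Values of Ndufaf2 and Sdhaf1 are uncertain, since 65.6% and 69.6% of their exonic bases lie under exons of another gene, and so are those of Atp5o (47.9%), Ndufb6 (39.0%) and Ndufa13 (30.0%).

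Many nuclear members also have near-identical copies elsewhere, most of them annotated as processed pseudogenes. Copies (95% identity over at least 150 bases) were found for 23 of 85 nuclear subunit genes and 9 of 13 mitochondrial genes. In all, 32 of the 110 genes have at least 1. For some, the copies held more reads than the gene: 15.9 reads per read of Atp5l, 12.1 for Ndufs5, 7.51 for Atp5g2, 7.01 for Cox7c, 5.94 for Cox5b, 5.21 for Atp5g1 and 4.62 for Atp5h. The level of these genes is therefore uncertain, and the changes of some copies are given beside those of their genes. Gm10250, a copy of Atp5h on chromosome 15, had 172, 169 and 171 CPM in -/- libraries and 102, 96.7 and 104 CPM in flox/flox libraries (log2 fold change 0.76 ± 0.05, edgeR adjusted p = 0.000325). This copy lies off chromosome 11 and rose as Atp5h did. 4930481A15Rik, on chromosome 19, is annotated as an antisense gene and not as a pseudogene. It aligns to Uqcr10 over 191 bases at 95.8% identity, and it rose as well (0.57 ± 0.12, edgeR adjusted p = 0.00851). Copies that lie on chromosome 11 while their gene lies elsewhere were not called: Gm12231, of Atp5f1, had -0.07 ± 0.05, and Gm12338, of Cox7c, had -0.02 ± 0.05. Gm12251, of Ndufs3, had 0.06 ± 0.06, Gm11628, of Uqcr11, had 0.15 ± 0.09, and Atp5l2-ps, of Atp5l, had 0.06 ± 0.13, beside a median of 0.56 for that chromosome's protein-coding genes.

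**Figure D4:**
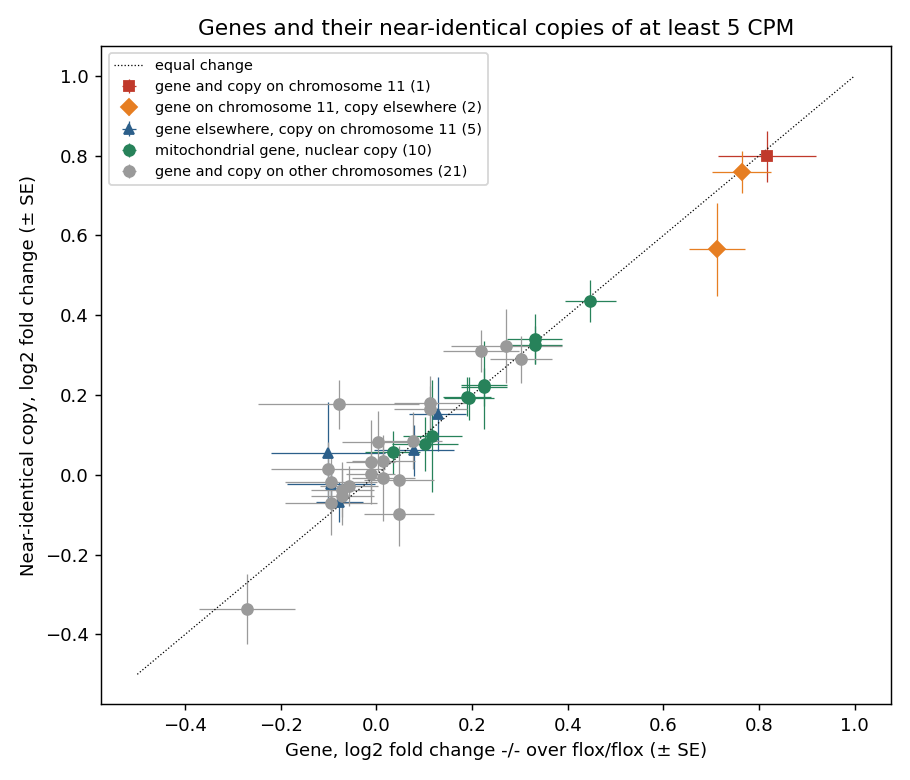
The log2 fold change of 39 near-identical copies of at least 5 CPM (y axis, ± SE) against that of the gene copied (x axis, ± SE), marked by the chromosomes of gene and copy, with a line of equal change. Copies off chromosome 11 of genes on it lie at 0.57 and 0.76, and the 5 copies on chromosome 11 of genes elsewhere lie between -0.07 and 0.15. The point at 0.57 is 4930481A15Rik, an antisense gene that shares a stretch with Uqcr10.

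Promoters were searched for the motifs of NRF1 and of ETS factors such as GABP, which are known to drive many nuclear respiratory genes. The letters were GCGCA, any base and GCGC for NRF1 and CCGGAAG for ETS, on either strand, in the 300 bases from 250 before to 50 after each start (RefSeq, GRCm38.p6). The table held promoters of 78 of the 97 nuclear members, 83 promoters in all. The NRF1 letters stood in 26.5% of these 83 and in 4.6% of all 32851 promoters, and the ETS letters in 25.3% and 8.86%. Among promoters of members that rose, 23.5% held the NRF1 letters and 29.4% the ETS letters, and among members not called 28.6% and 25.4%. The 2 motifs can overlap by at most 1 letter, and a match is a description of letters, not a site.

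Promoters of the members of complexes V, I and IV with the clearest calls show both cases. Atp5h, on chromosome 11, rose, and its promoter (chr11:115419870-115420169, minus strand) holds 1 match of each motif, in capitals. Ndufb10, the largest complex I rise (chr17:24724374-24724673, minus strand), and Cox5a, the 1 nuclear fall (chr9:57520982-57521281, plus strand), hold neither. The promoters of Uqcr10 and Atp5g1, which also rose on chromosome 11, hold neither as well and are not shown.
Atp5h: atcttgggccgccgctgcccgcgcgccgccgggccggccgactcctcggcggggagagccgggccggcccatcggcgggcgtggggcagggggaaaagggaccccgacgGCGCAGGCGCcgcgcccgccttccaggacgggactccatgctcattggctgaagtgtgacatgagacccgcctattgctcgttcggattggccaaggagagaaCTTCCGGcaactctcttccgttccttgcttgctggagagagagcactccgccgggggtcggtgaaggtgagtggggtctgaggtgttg
Ndufb10: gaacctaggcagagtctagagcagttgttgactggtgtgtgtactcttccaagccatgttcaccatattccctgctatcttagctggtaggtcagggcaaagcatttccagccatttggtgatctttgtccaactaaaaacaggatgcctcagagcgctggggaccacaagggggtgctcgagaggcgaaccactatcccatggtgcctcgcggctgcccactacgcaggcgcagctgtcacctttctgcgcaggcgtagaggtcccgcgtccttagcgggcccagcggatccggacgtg
Cox5a: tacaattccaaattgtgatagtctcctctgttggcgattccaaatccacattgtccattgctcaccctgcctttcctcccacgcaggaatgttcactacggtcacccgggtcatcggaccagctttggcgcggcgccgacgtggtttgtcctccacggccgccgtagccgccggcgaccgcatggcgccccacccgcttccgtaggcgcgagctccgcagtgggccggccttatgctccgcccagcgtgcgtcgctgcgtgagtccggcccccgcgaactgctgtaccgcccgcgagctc

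More regulators of mitochondrial biogenesis fell than rose. Of 15 tested, 1 rose and 6 fell, beside 17.9% and 17.4% of all genes, with a median log2 fold change of -0.25. Ppargc1a, the coactivator PGC-1alpha, had 2.72, 2.89 and 4.40 CPM in -/- libraries and 0.473, 1.03 and 1.47 CPM in flox/flox libraries (1.76 ± 0.38, edgeR adjusted p = 0.0101). Its level was low in both lines, and the groups were apart. Gabpb2, a GABP subunit, had 76.9, 77.8 and 68.2 CPM in -/- libraries and 115.5, 112.3 and 113.9 CPM in flox/flox libraries (-0.62 ± 0.07, adjusted p = 0.00072). The pluripotency and mitochondrial regulator Esrrb also fell (-0.98 ± 0.14, adjusted p = 0.0019). Nrf1 and Gabpa, named for the motifs searched after their values were seen, had 0.07 ± 0.06 (adjusted p = 0.378) and -0.25 ± 0.06 (adjusted p = 0.0159). The fall of Gabpa missed the threshold without -/- B, flox/flox A or flox/flox B (0.0538 to 0.0658).

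Genes that transcribe the mitochondrial genome and process its RNA are given beside the 17.9% of all genes that rose, and those outside chromosome 11 beside the 16.6% of protein-coding genes of at least 10 CPM there. Of 21 genes for transcription and DNA maintenance, 6 rose (5 in DESeq2 and in limma-voom), with a median log2 fold change of 0.21, and outside chromosome 11 it was 4 of 19. None fell in edgeR, DESeq2 or limma-voom, nor was any lower at an unadjusted p under 0.05. The 2 of smallest adjusted p lie on chromosome 11: Tefm, the elongation factor (0.54 ± 0.09, edgeR adjusted p = 0.00445), and Polg2, the polymerase accessory subunit (0.73 ± 0.11, adjusted p = 0.00216). Of 17 genes for RNA processing and stability, 5 rose and 1 fell. Outside chromosome 11, 2 of 14 rose, and the 3 rises on it include Pnpt1 (0.45 ± 0.06, edgeR adjusted p = 0.00139) and Elac2 (0.65 ± 0.08, adjusted p = 0.000952). With the chromosome 11 offset none of these 4 was called (adjusted p 0.164 to 0.892). Grsf1, which binds mitochondrial RNA in its processing granules (in human cells the ND6 message among others), fell, with 118, 115 and 117 CPM in -/- libraries and 250.4, 183 and 149 CPM in flox/flox libraries (-0.73 ± 0.17, adjusted p = 0.0132, and 0.0505 without -/- B). The flox/flox libraries spread widely, but all lay above the -/- libraries.

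Assembly factor genes outside the prefixes were counted by complex. For complex I, 1 of 9 rose, beside 17.9% of all genes, namely Ecsit (log2 fold change 0.35 ± 0.09, edgeR adjusted p = 0.0175, and 0.0515 and 0.0746 without flox/flox A and B). None fell in edgeR, DESeq2 or limma-voom or was lower at an unadjusted p under 0.05. For complex III and the cytochromes, 4 of 8 rose and 2 fell (2 and 2 of 6 outside chromosome 11). Bcs1l, the chaperone that inserts the Rieske protein, lies on chromosome 1 and had 14.8, 15.7 and 14.7 CPM in -/- libraries and 7.47, 8.32 and 7.97 CPM in flox/flox libraries (0.93 ± 0.09, adjusted p = 0.000609). Its groups were well apart. Ttc19, on chromosome 11, rose (0.62 ± 0.08, adjusted p = 0.00138, but 0.372 with the chromosome 11 offset), and Cycs, cytochrome c, and Uqcc2 fell (-0.23 ± 0.07 and -0.27 ± 0.07). The fall of Cycs missed the threshold without any 1 library but flox/flox A (adjusted p 0.0564 to 0.125), with scaling factors taken without chromosome 11 (0.0506) and with no filter (0.0963). That of Uqcc2 missed it without -/- B, -/- C, flox/flox B or flox/flox C (0.0503 to 0.102) and with no filter (0.0709).

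For complex IV, 6 of 25 assembly genes rose, none fell in edgeR, DESeq2 or limma-voom (1 was lower at an unadjusted p under 0.05), and outside chromosome 11 the count was 2 of 20. The 4 rises on chromosome 11 include Coa3 (log2 fold change 0.77 ± 0.06, edgeR adjusted p = 0.000338) and the translational activator of COX1, Taco1 (0.81 ± 0.08, adjusted p = 0.000581). For complex V, 1 of 7 rose, Atpaf2 on chromosome 11 (0.94 ± 0.08, adjusted p = 0.000453), and none fell in edgeR, DESeq2 or limma-voom or was lower at an unadjusted p under 0.05. The tricarboxylic acid cycle, which feeds electrons to complexes I and II, had 4 of 14 genes risen and 2 fallen, beside 17.9% and 17.4% of all genes. Ogdh, on chromosome 11, had 174, 170.1 and 160.5 CPM in -/- libraries and 102, 99.2 and 105 CPM in flox/flox libraries (0.72 ± 0.06, adjusted p = 0.000342). Idh2, the NADP-linked isocitrate dehydrogenase, had 128, 125 and 122 CPM in -/- libraries and 198, 193 and 171 CPM in flox/flox libraries (-0.58 ± 0.07, adjusted p = 0.000929). Both had groups that were apart. Idh3b rose (0.26 ± 0.06, adjusted p = 0.0159, but 0.0581 without flox/flox B and 0.0615 without -/- B), and Suclg2 fell (-0.47 ± 0.14, adjusted p = 0.038, but 0.0821 to 0.121 without -/- B, -/- C, flox/flox A or flox/flox B).

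Genes of the integrated stress response, which respiratory defects are known to induce, were counted as well. Of 12 tested, 3 rose and 1 fell, beside 17.9% and 17.4% of all genes. Ddit4 had 128, 143 and 117 CPM in -/- libraries and 97.6, 97.2 and 91.1 CPM in flox/flox libraries (log2 fold change 0.44 ± 0.08, edgeR adjusted p = 0.00531), and Ddit3 also rose (0.47 ± 0.10, adjusted p = 0.00935). Atf5 fell, with 40.2, 36.2 and 30.9 CPM in -/- libraries and 62.2, 72.0 and 65.2 CPM in flox/flox libraries (-0.89 ± 0.11, adjusted p = 0.00107). Every -/- library lay above the flox/flox libraries for Ddit4 and below them for Atf5. Fgf21 had 0 reads in all 6 libraries.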

How the data were processed

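The authors deposited unnormalised counts of reads for each Ensembl gene of the 6 libraries, made with BWA 0.5.9 and featureCounts 1.4.6 on mm10 (GRCm38), per the submitters' processing notes. Libraries came from 1 µg RNA with a stranded mRNA kit, per the labels' protocols. Not given in the sources used here are the annotation release, the strand setting and what was done with duplicates and with reads of several matches, so reads of overlapping or near-identical genes may be shared. Columns carry a genotype and a letter and the labels a replicate number, so columns were assigned to a group only; 0 columns were left out.

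Symbols, exon lengths and chromosomes came from GENCODE M21, and promoters from RefSeq. Counts were tested with edgeR 4.0.16 (R 4.3.3): TMM, filterByExpr (minimum count 10, total 15), quasi-likelihood, two-sided, Benjamini-Hochberg over 20549 genes. The fitting code was tested on simulated data. Alternatives were other scaling factors and filters, DESeq2 1.42.0, limma-voom 3.58.1, a replicate block, a chromosome 11 offset and each library left out. Adding reads of near-identical copies, found with blastn 2.17.0, was chosen after seeing the data. Within a group, libraries differed beyond counting error (chi-square per gene 5.49 to 30), and the common biological coefficient of variation was 0.123. Deviations from the group means correlated at 0.353, 0.139 and 0.34 between same-letter columns A, B and C and at -0.387 to 0.054 between others. The letters were therefore taken to pair the libraries in the replicate block, from the data and not from the labels. The main test did not use this pairing. With the block 4358 genes were higher and 4171 lower over all genes, against 3679 and 3571 in the main test.

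Genes given with values in every library are the mitochondrial genes, the 2 largest rises and falls of each complex with at least 5 CPM, members on chromosome 11, members with paralogs and the defining subunits; outside the members, the 2 smallest adjusted p of each list and direction. Members and lists were chosen with earlier results of these data known.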

Additional observations from a re-analysis of the deposited data

How the results depend on the processing

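Of 105 single genes tested, 81 kept the same call under all 16 alternatives, and of the 31 called, 14 were called under all of them; none of these changed its sign where called. With no filter on low counts, 2 complex IV genes and 9 nuclear subunit genes outside chromosome 11 rose (4 and 14 in the main test), and DESeq2 gave 2 for complex IV. With the replicate block by column letter, or with the reads of near-identical copies added, 2 nuclear subunit genes fell, 2 of them outside chromosome 11 and 1 in complex I (1, 1 and 0 in the main test); the block changed no other call than those of Ndufa4l2, mt-Nd1, Ndufb2 and Ndufs6 given above. With the chromosome 11 offset, 1 nuclear complex V gene rose in place of 2, and Pnpt1 had a log2 fold change of -0.064. Uncalled Ndufa6 (adjusted p 0.0435) and Uqcrh (0.0486) passed with scaling factors taken without chromosome 11, and Ndufa6 without flox/flox A (0.0357). With the chromosome 1 copies added, the difference in mitochondrial share was 0.696 percentage points, against 0.529.

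Without single libraries, genes higher numbered 2315 to 3510 and lower 2342 to 3336 over all genes, 8 to 14 and 1 to 2 for nuclear subunits, 4 to 10 and 1 to 2 for those outside chromosome 11, 4 to 7 and 0 to 2 for mitochondrial genes, and 2 to 3 and 0 for assembly factors. By complex, the nuclear genes higher were 3 to 6 (I, with 0 to 1 lower), 0 to 1 (II), 2 to 3 (III), 1 to 3 (IV) and 2 (V). Over all genes, the lowest counts came without flox/flox B (higher) and -/- B (lower). The causes were not tested. Rises that lost their call without single libraries ran from 1.11-fold (Uqcrfs1) to 1.32-fold (Ndufaf7), and to 2.03-fold in the sparse Ndufa4l2.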

Other observations

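The ribosomal RNA genes of the mitochondrial genome, which encode no protein and are not among the 110 genes, were also counted. mt-Rnr2 had 380, 358 and 449 CPM in -/- libraries and 520, 468 and 519 CPM in flox/flox libraries (log2 fold change -0.34 ± 0.09, edgeR adjusted p = 0.0249, but 0.0649 to 0.0942 without -/- A, -/- B, flox/flox A or flox/flox C). mt-Rnr1 had 79.2, 85.9 and 91.0 CPM in -/- libraries and 87.3, 101 and 105 CPM in flox/flox libraries (-0.20 ± 0.09, edgeR adjusted p = 0.119, 0.0195 with the replicate block and 0.0408 without flox/flox A). Both had lower means in the -/- libraries, in which 7 of the 13 protein messages of that genome rose, beside 17.9% of all genes. The libraries were made to select poly(A) RNA. These genes were chosen after their values were seen.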
